A study of Mus musculus with 28 samples.

Results

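The Notch signaling pathway was examined here through 10 genes, the receptors Notch1, Notch2, Notch3 and Notch4, the ligands Jag1, Jag2, Dll1 and Dll4, and the target genes Hes1 and Hey1. Every probe set that the array annotation ties to exactly 1 of these symbols was taken, which gave 19 of the 34958 probe sets with a single gene, and the 10 genes are part of 18194. The set was chosen by its array values, namely the very high Notch4 signal already seen in these tumors, so Notch4 levels are described without a test. The other 9 genes, with 16 probe sets, and their relation to Notch4 were tested.

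Whole tissue RNA was hybridized to Affymetrix arrays from 9 lung metastases (LungMets), 11 primary tumors (PT), 3 normal lungs (NL) and 3 normal mammary glands (NMG), all from BalbC nude females of 1 strain with no engineered allele or drug named in the labels. Tumors grew from 50000 JygMC(A) cells per mammary gland and were taken on day 30 (PT) or day 50 (LungMets), while NL and NMG came from healthy mice of that strain. JygMC(A) cells come from a mouse mammary carcinoma and form lung metastases without further manipulation. The methods describe the injected cells as carrying a GFP and luciferase reporter, and all tumors derive from this 1 line. The same cells grown as 3D spheres and as a monolayer gave 1 array each, with no replicate. The mouse behind each array is not given, and the methods describe 1 or more fragments per mouse, so p-values measure the spread between samples, some of which may share an animal. Nude mice lack mature T cells but keep other immune cells.

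Notch receptors are membrane proteins that are cut by ADAM proteases and gamma-secretase once a Jagged or Delta-like ligand on a neighboring cell engages them. The released intracellular domain joins the DNA-binding protein RBPJ and Mastermind-like coactivators, and this complex turns on Hes and Hey genes, which encode repressors of transcription. In the mammary gland the pathway bears on luminal cell fate, and in blood vessels Dll4, Notch1 and Notch4 take part in sprouting. Notch4 is also known as Int3, a recurrent insertion site of mouse mammary tumor virus. Truncated forms of it act without ligand.

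RefSeq promoters (GRCm38.p6, 300 bases around the start of the gene) are shown for Notch4, whose signal prompted the work, and for Hey2, a direct target that was higher in both tumor groups than in NMG. Capitals mark the core RBPJ motif TGGGAA or its reverse complement TTCCCA, searched on both strands. Both sequences run 5′ to 3′ on the strand of the gene, which is the plus strand for Notch4 (chr17:34564045-34564344) and the minus strand for Hey2 (chr10:30842734-30843033).
Notch4: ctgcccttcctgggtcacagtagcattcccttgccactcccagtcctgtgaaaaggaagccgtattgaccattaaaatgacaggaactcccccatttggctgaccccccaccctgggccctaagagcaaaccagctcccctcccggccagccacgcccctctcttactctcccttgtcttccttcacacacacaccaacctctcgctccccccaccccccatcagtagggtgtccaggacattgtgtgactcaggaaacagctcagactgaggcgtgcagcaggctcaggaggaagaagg
Hey2: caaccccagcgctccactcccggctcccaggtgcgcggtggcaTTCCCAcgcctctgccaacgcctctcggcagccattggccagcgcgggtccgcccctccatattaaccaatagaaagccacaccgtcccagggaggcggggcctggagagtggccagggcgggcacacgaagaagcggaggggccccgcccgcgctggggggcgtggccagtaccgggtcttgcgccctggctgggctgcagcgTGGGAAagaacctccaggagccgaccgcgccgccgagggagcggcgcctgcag
The motif stood 2 times in the Hey2 window and 0 times in the Notch4 window. Among the 14 promoters listed for the members and the other direct targets, 3 held it (21.4%), those of Hes5, Hes7 and Hey2. It was present in 8397 of 32851 promoters of the same length (25.6%). Hes1, Hey1 and Heyl had no promoter entry. A match is a description of the letters and not evidence of binding.

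Values are log2 signal after RMA, with array medians from 5.00 to 5.18, so 1 unit is a doubling. Levels of different probe sets were not set against each other, and in tissue RNA fewer cells of a type cannot be told apart from less RNA per cell. PT replicate 5 and LungMets replicate 9 stood apart from their groups in lung genes and in other cell type markers. The mean of 9 lung epithelial markers was 10.5 in PT replicate 5, against 5.17 to 7.35 in the other PT, and 6.93 in LungMets replicate 9, against 10.40 to 11.26 in the other LungMets. It was 11.99 to 12.11 in NL. The mean of 4 adipocyte markers was 4.54 in PT replicate 5, against 6.01 to 7.12 in the other PT. In LungMets replicate 9 it was 7.29, against 4.32 to 5.56 in the other LungMets. LungMets replicate 9 also had B cell and basal means of 7.95 and 6.98, against 4.45 to 5.88 and 4.9 to 5.29 in the other LungMets. Both arrays stayed in the main fit. Arrays carry 4 dates in the labels, which split PT and LungMets into 4 LungMets with 4 PT and 5 LungMets with 7 PT, while NL and NMG each had a date of their own. Date and tissue cannot be told apart for NL and NMG.

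Notch4 signal was high in every tumor and in both cell arrays by probe set 1436901_at, and variable by the other probe sets. By 1436901_at the lowest, median and highest values were 13.11, 13.55 and 13.69 in LungMets and 13.19, 13.34 and 13.71 in PT, against single values of 4.28, 4.49 and 4.44 on the 3 NL arrays and 3.74, 3.17 and 4.32 on the 3 NMG arrays. Spheres and monolayer were at 13.16 and 13.30. The tumors and the cultured cells lay within a narrow band, with no overlap with either normal tissue. This band was near the highest value of any probe set on these arrays, 13.92 to 14.49. Whether signal was compressed there was not tested. LungMets minus PT was 0.01 (SE 0.11). The NL and NMG values lay below every array median and no detection calls were used, so no fold against them is given for this probe set. The SD among arrays was 0.21 in LungMets and 0.19 in PT, against 0.11 in NL and 0.57 in NMG.

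Probe set 1449146_at gave another picture of Notch4. Its lowest, median and highest values were 8.67, 10.62 and 12.11 in LungMets and 8.49, 10.36 and 12.25 in PT, against single values of 8.74, 8.75 and 8.77 on the 3 NL arrays and 6.35, 5.95 and 6.23 on the 3 NMG arrays. Spheres were at 5.13 and the monolayer at 7.08. All 9 LungMets and all 11 PT were above NMG, 8 of 9 LungMets were above NL, and both cell arrays were below every tumor array. PT minus NMG was 4.03 (SE 0.75) and LungMets minus NL was 1.59 (SE 0.77). Probe set 1456263_at was also variable among tumors and ranged from 4.60 to 7.74 in LungMets and from 4.15 to 7.58 in PT, against 4.29 to 4.55 in NL and 3.83 to 3.94 in NMG. Spheres were at 4.08 and the monolayer at 4.61 by this probe set. Between probe sets r was 0.890, 0.908 and 0.933 across PT and 0.892, 0.890 and 0.936 across LungMets, so the 3 ran closely together among tumors. The stretches of the transcript that the 3 probe sets read were not analysed here, so the disagreement in the cultured cells is given as measured.

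**Figure D1:**
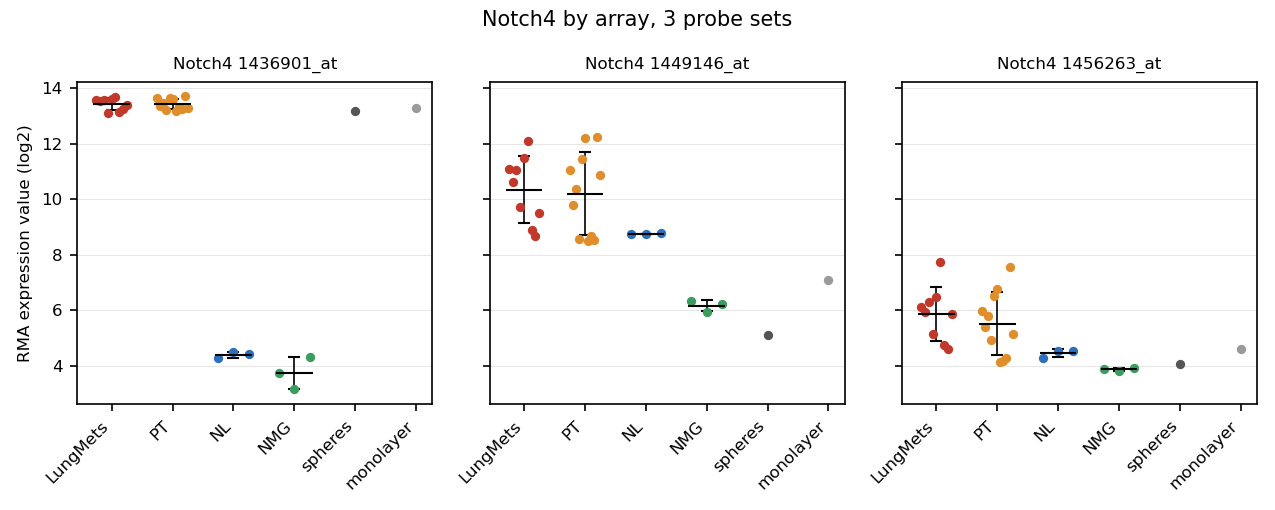
Log2 RMA signal (vertical axis) of the 3 Notch4 probe sets on each of the 28 arrays, by group; black lines and bars give the mean and SD of groups with replicates. By 1436901_at all tumor and cell arrays lie between 13.11 and 13.71, whereas by 1449146_at the tumors spread from 8.49 to 12.25 and the cell arrays lie at 5.13 and 7.08.

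Of the 16 probe sets of the other members, 4 were called in PT against NMG at an adjusted p under 0.05 (25%), below the 46.1% of all probe sets called in that comparison. Hes1 and Hey1 were higher in PT (2 of 16, against 26.8% of all probe sets), and 1 probe set of Jag2 and that of Dll1 were lower (2 of 16, against 19.3%). The median difference of the 16 was -0.06, against 0.10 over all probe sets. In LungMets against NMG 2 of 16 were called (12.5%), against 39% of all probe sets, Hey1 and 1 probe set of Dll4, both higher, a direction called for 21.9%. LungMets against NL gave 7 of 16 (43.8%), close to the 44.2% of all probe sets. All 7 were lower in LungMets, a direction called for 21.5% of all probe sets, and the median of the 16 was -0.75, against 0.04 over all. LungMets against PT gave 2 of 16 (12.5%), near the 14.4% of all probe sets, both of Dll4 and both higher in LungMets, a direction called for 7.35%. Over all probe sets 51.2% of the calls in LungMets against PT were higher, and 35% were once each array was centred on its median. Counted by gene, at least 1 probe set was called for 4 of the 9 members in PT against NMG (57.5% of all genes), 2 in LungMets against NMG (51.1%), 6 in LungMets against NL (55.6%) and 1 in LungMets against PT (21.1%). Without PT replicate 5 and LungMets replicate 9 these counts were 4, 4, 7 and 2 of 9, where 47.5%, 40.1%, 44.3% and 19.4% of all probe sets were called. The comparisons share their LungMets, PT or NMG arrays, so their calls are not independent.

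**Figure D2:**
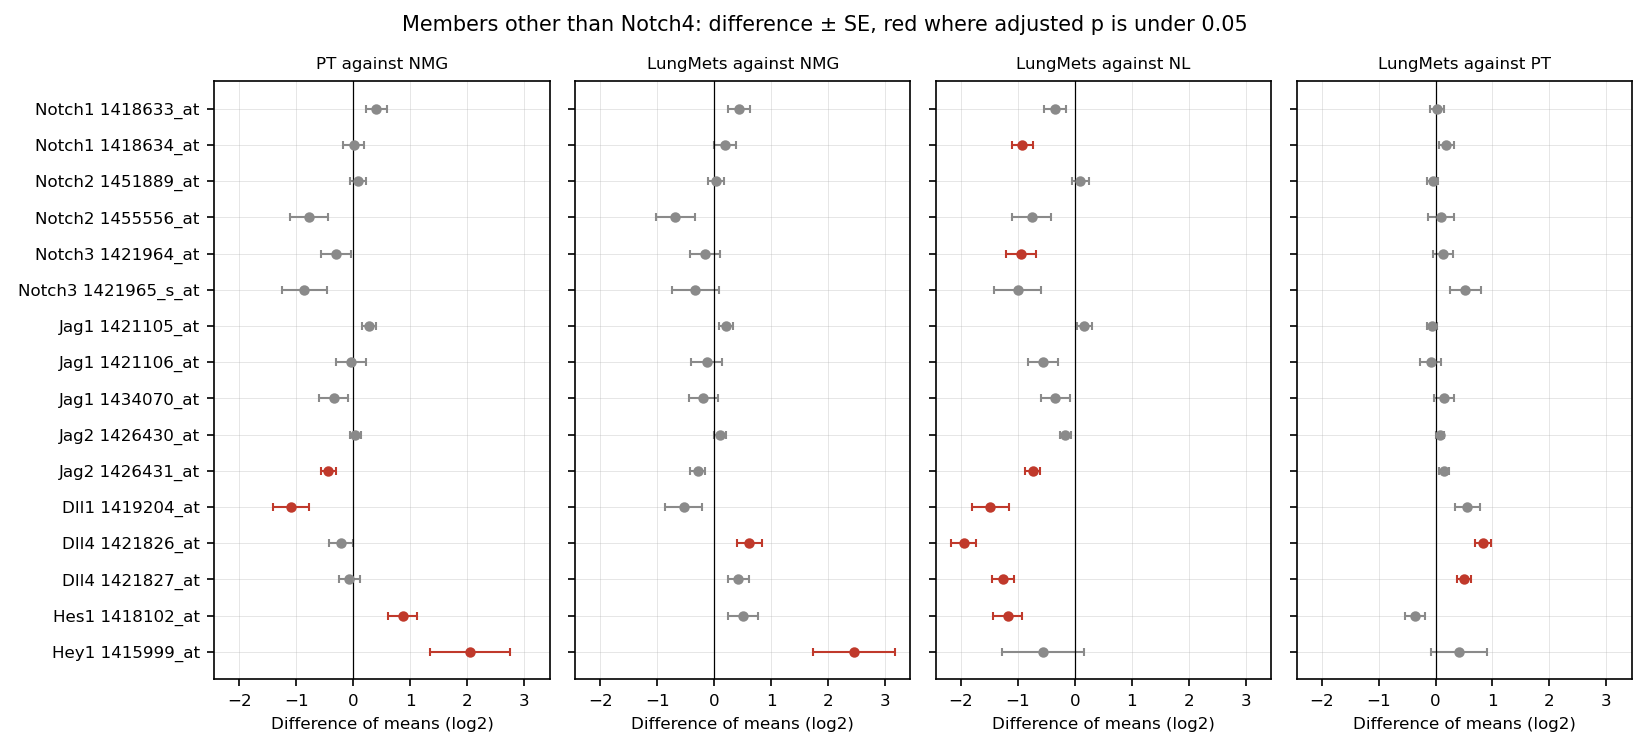
Difference of group means (log2, horizontal axis) with its SE for the 16 probe sets of the 9 members other than Notch4, in 4 comparisons; red points have an adjusted p under 0.05. Hes1 and Hey1 lie to the right in PT against NMG, and all 7 red points lie to the left in LungMets against NL.

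Among the receptors, no probe set of Notch1, Notch2 or Notch3 was called in PT against NMG, LungMets against NMG or LungMets against PT. Notch1 (1418634_at) was 8.90 to 9.85 in LungMets and 8.75 to 9.69 in PT, against 10.28 to 10.47 in NL and 9.03 to 9.48 in NMG. It was lower in all 9 LungMets than in NL (log2 difference -0.92, SE 0.19, limma adjusted p = 0.000345). Its second probe set (1418633_at) differed by -0.35 between LungMets and NL and was not called (adjusted p = 0.141). Notch1 was at 7.15 in spheres and 7.18 in the monolayer by 1418634_at, below every tissue array.

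Notch3, the receptor of vascular mural cells that also acts in luminal progenitors, was 4.75 to 5.68 in LungMets, against 5.79 to 6.49 in NL, by 1421964_at (difference -0.94, SE 0.26, adjusted p = 0.00514). By 1421965_s_at the difference was -1.0 (SE 0.41) and narrowly missed the threshold (adjusted p = 0.0502). Without NL replicate 1 the 1421964_at call was also lost (difference -0.78, adjusted p = 0.0510). In PT 1421965_s_at spread from 6.26 to 8.83, against 7.89 to 8.64 in NMG (difference -0.86, adjusted p = 0.0840). Spheres were at 5.04 and the monolayer at 4.77 by this probe set, below all tissue arrays. By 1421964_at they were at 4.97 and 4.58, within the range of PT (4.37 to 5.84). Notch2 (1455556_at) was 7.92 to 9.60 in LungMets and 7.47 to 9.31 in PT, against 9.23 to 9.37 in NL and 9.15 to 9.37 in NMG. It was below NMG in 10 of 11 PT, by 0.78 on average (SE 0.33, adjusted p = 0.0591). The second Notch2 probe set (1451889_at) had group means from 4.27 to 4.42 in the 4 tissues.

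Of the 8 ligand probe sets, 4 were called lower in LungMets than in NL, a direction called for 21.5% of all probe sets. Dll4, the ligand of endothelial tip cells, was 5.56 to 6.86 in LungMets and 4.69 to 5.84 in PT, against 8.05 to 8.21 in NL and 5.53 to 5.59 in NMG, by 1421826_at. Thus 6 of 9 LungMets were above all PT, and all 9 were below NL. LungMets minus PT was 0.83 (SE 0.15, adjusted p = 0.000574) and LungMets minus NL was -1.95 (SE 0.22, adjusted p = 1.08e-07). The second probe set (1421827_at) gave 0.50 (adjusted p = 0.00984) and -1.26 (adjusted p = 6.36e-06). Within the date of 4 LungMets and 4 PT, LungMets minus PT was 0.73 (adjusted p = 0.0609) by 1421826_at, and within the date of 5 LungMets and 7 PT it was 0.90 (adjusted p = 0.214), so the direction was the same in both and neither passed. In the first of these dates 6.42% of all probe sets were called, and 0 in the other. LungMets minus NMG was 0.62 (SE 0.22, adjusted p = 0.0279), and this call was lost without any 1 of the NMG arrays (adjusted p from 0.0762 to 0.0845).

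Endothelial markers moved with Dll4 in LungMets against PT and against NL. Of 16 measured endothelial genes 13 were higher in LungMets than in PT and all 16 were lower in LungMets than in NL, at the gene level where 15.2% and 46.2% of all genes were called. In PT against NMG 1 was higher and 11 were lower (47.7% of all genes called), while Dll4 was not called. In LungMets against NMG 1 was higher and 0 were lower (41% of all genes called), while 1 Dll4 probe set was higher. The mean of the 16 ranged from 6.70 to 8.84 in LungMets and from 5.23 to 7.68 in PT, against 9.99 to 10.15 in NL and 7.43 to 7.73 in NMG. It was 4.81 in spheres and 4.82 in the monolayer. Single genes of the list differed there, with Cdh5, a defining endothelial gene, at 3.34 and 4.00 and Eng at 7.22 and 7.56. Eng was 6.33 to 8.34 in PT. The part of the endothelial markers in the Dll4 and Notch1 differences was not tested.

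Dll1 was 5.84 to 7.92 in LungMets and 5.27 to 6.82 in PT, against 8.05 to 8.19 in NL and 6.93 to 7.54 in NMG. All PT were below all NMG (difference -1.09, SE 0.32, adjusted p = 0.00646), a call that was lost without NMG replicate 1 (-0.90, adjusted p = 0.0600). All LungMets were below all NL (-1.48, SE 0.32, adjusted p = 0.000559). Spheres and monolayer were at 4.55 and 5.19. Jag2 (1426431_at) was lower in PT than in NMG by 0.44 (SE 0.13, adjusted p = 0.00830) and in LungMets than in NL by 0.74 (SE 0.13, adjusted p = 7.49e-05). Without NMG replicate 2 the PT difference was -0.34 (adjusted p = 0.0817). The other Jag2 probe set (1426430_at) was called in neither, at 0.03 and -0.16. No probe set of Jag1, the ligand of luminal and vascular cells, was called in any comparison. By 1434070_at it was 8.04 to 8.75 in LungMets and 7.51 to 8.73 in PT, against 8.20 to 9.08 in NL and 8.53 to 8.68 in NMG, so each tumor group overlapped both normal tissues. Spheres were at 8.21 and the monolayer at 7.17.

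**Figure D3:**
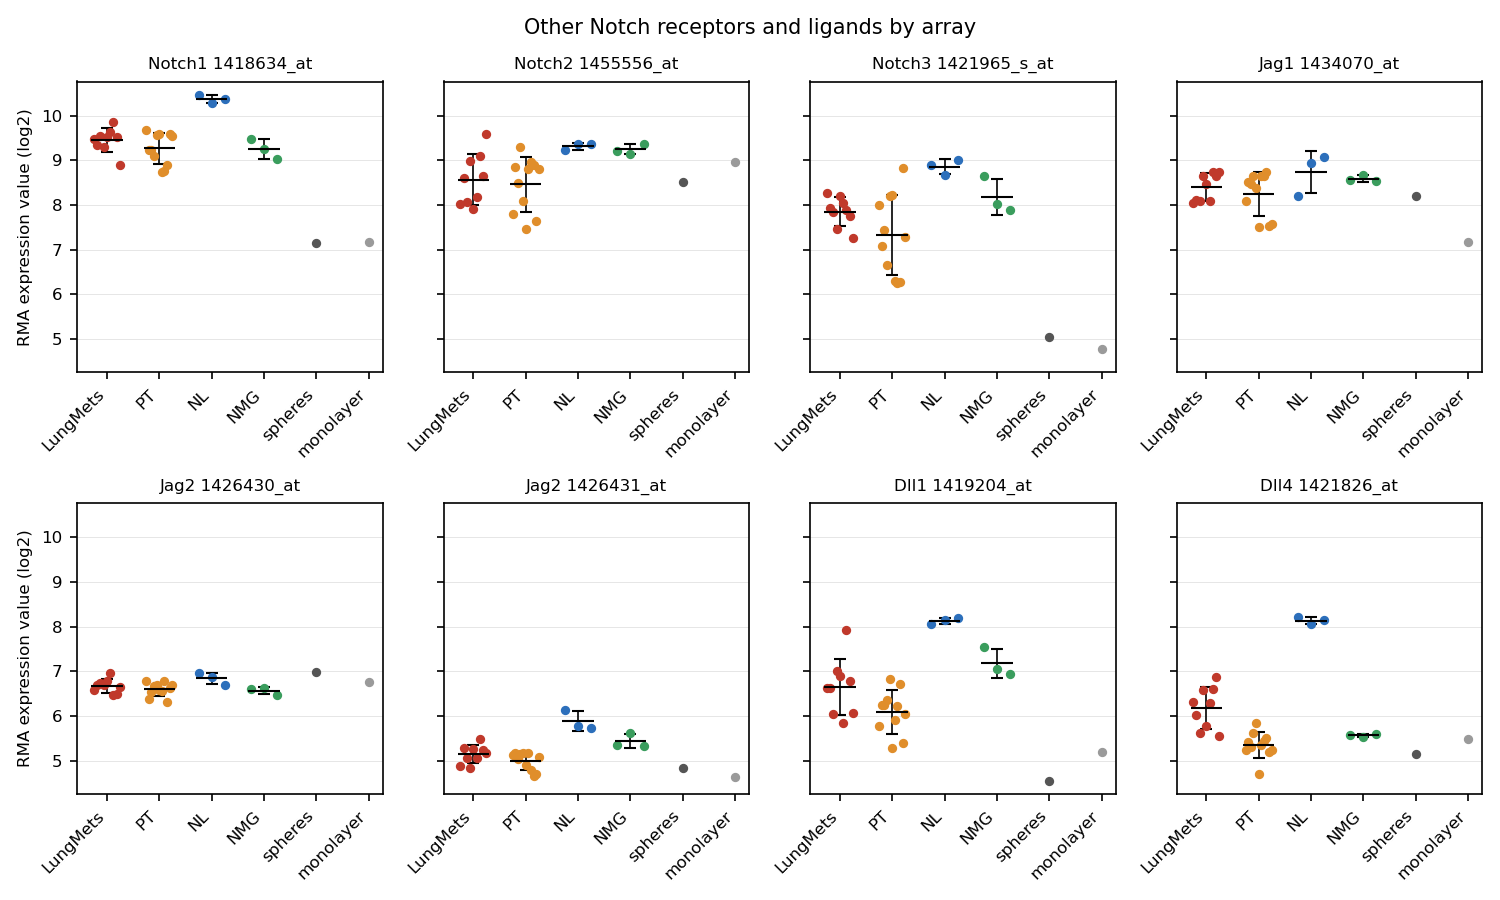
Log2 RMA signal (vertical axis) of Notch1, Notch2, Notch3, Jag1, Jag2 (both probe sets), Dll1 and Dll4 on each of the 28 arrays, by group; black lines and bars give the mean and SD. All 9 LungMets lie below NL for Notch1, Notch3, Jag2 (1426431_at), Dll1 and Dll4, and the 2 cell arrays lie below all tissue arrays for the Notch1 (1418634_at) and Notch3 (1421965_s_at) probe sets shown.

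Hey1, a repressor induced directly by Notch, was high and variable in the tumors. Its lowest, median and highest values were 7.25, 9.25 and 10.21 in LungMets and 6.86, 8.85 and 10.95 in PT, against single values of 9.62, 9.82 and 9.52 on the 3 NL arrays and 6.48, 6.54 and 6.86 on the 3 NMG arrays. All 9 LungMets and 10 of 11 PT were above every NMG, and LungMets overlapped NL. PT minus NMG was 2.05 (SE 0.71, adjusted p = 0.0196) and LungMets minus NMG was 2.46 (SE 0.72, adjusted p = 0.00866). The PT call was lost without NMG replicate 1 (1.97, adjusted p = 0.0698) or NMG replicate 2 (2.00, adjusted p = 0.0649). LungMets minus NL was -0.56 (SE 0.72, adjusted p = 0.560). Spheres were at 5.22 and the monolayer at 4.98, below every tissue array, although both had Notch4 1436901_at signal at tumor levels. By Notch4 1449146_at, however, they were at 5.13 and 7.08, below every tumor array. By Notch4 1456263_at they were at 4.08 and 4.61.

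Hes1, the other target among the members, was higher in PT than in NMG and lower in LungMets than in NL. Its lowest, median and highest values were 7.49, 8.10 and 8.54 in LungMets and 7.70, 8.30 and 9.02 in PT, against single values of 9.62, 9.18 and 8.76 on the 3 NL arrays and 7.86, 7.61 and 7.03 on the 3 NMG arrays. Spheres were at 6.49 and the monolayer at 7.89. PT were above NMG in 9 of 11 arrays, by 0.87 (SE 0.26, adjusted p = 0.00699), which was 0.64 without NMG replicate 3 (adjusted p = 0.0963). LungMets minus NMG was 0.51 (SE 0.26, adjusted p = 0.131), and LungMets minus PT was -0.37 (SE 0.18, adjusted p = 0.177). All LungMets were below all NL (-1.18, SE 0.26, adjusted p = 0.000677).

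The tumor over host tissue difference was compared between the sites, as PT minus NMG less LungMets minus NL. For Hes1 this was 2.05 (SE 0.37, adjusted p = 0.000218), so Hes1 was above its host tissue in PT and below it in LungMets. Dll4 gave 1.74 (SE 0.31, adjusted p = 0.000190) and 1.19 (SE 0.26, adjusted p = 0.00204), and Notch1 (1418634_at) 0.93 (SE 0.27, adjusted p = 0.0157). In all, 4 of 16 member probe sets were called (25%), against 17.3% of all probe sets, and all 4 differences were positive, a direction called for 9.13%. Dll4 itself was not called in PT against NMG (-0.22 and -0.07). They belong to 3 of the 9 genes, against 24.1% of all genes. The Notch1 call was lost without NMG replicate 3 (0.82, adjusted p = 0.0628). For Hey1 the value was 2.61 (SE 1.01) and missed the threshold (adjusted p = 0.0786). All these values also hold the difference between NL and NMG, which had separate dates. Hes1 averaged 9.19 in NL and 7.50 in NMG, Dll4 (1421826_at) 8.13 and 5.56, and Notch1 (1418634_at) 10.37 and 9.25. In PT and LungMets the averages were 8.37 and 8.01, 5.35 and 6.18, and 9.27 and 9.45. NL and NMG thus lay farther apart than PT and LungMets for each.

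The wider set of direct targets held 8 genes, namely Hes1, Hes5, Hes7, Hey1, Hey2, Heyl, Nrarp and Dtx1, read from 1 probe set per gene. In PT against NMG 4 were higher and 1 was lower, against 47.7% of all genes called, and their median difference was 0.60, against 0.09 over all genes. In LungMets against NMG 5 were higher and 2 lower, against 41% of all genes, with a median of 0.55, against 0.10 over all. In LungMets against PT only Heyl was called, against 15.2% of all genes, and in LungMets against NL Hes1 and Heyl were lower, against 46.2%. Without PT replicate 5 and LungMets replicate 9, which were left out after the data were seen, these counts did not change. They were not counted again without single NMG arrays. At the probe set level the PT against NMG calls of Hes1 and Hey1 were each lost that way, as given above. The share called was above the background in LungMets against NMG and below it in LungMets against NL. In PT against NMG and LungMets against PT it was closer to the background, over only 8 genes. Hey1, Nrarp (1417985_at) and Heyl (1438886_at) averaged 9.65, 8.69 and 6.46 in NL, above 9.09, 8.20 and 6.07 in LungMets. Hey2 and Hes7 averaged 3.80 and 4.48 in NL, below 4.52 and 4.64 in LungMets. The part of lung tissue in LungMets against NMG was not tested.

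Hey2, a repressor of the Hey family known from arteries and heart, was 4.02 to 5.21 in LungMets and 3.59 to 6.06 in PT, against 3.73 to 3.85 in NL and 3.24 to 3.57 in NMG. All 9 LungMets and all 11 PT were above every NMG. PT minus NMG was 1.25 (SE 0.38, adjusted p = 0.00849) and LungMets minus NMG was 1.09 (SE 0.39, adjusted p = 0.0275). All 9 LungMets were also above every NL, but LungMets minus NL was 0.72 (SE 0.39) and was not called (adjusted p = 0.135). Nrarp, a feedback inhibitor of Notch, was 6.0 to 7.19 in LungMets and 5.87 to 7.79 in PT, against 6.39 to 6.51 in NL and 5.39 to 5.84 in NMG, by 1417986_at. It was higher in PT than in NMG by 0.90 (SE 0.31, adjusted p = 0.0193), and the other probe set (1417985_at) gave 0.99 and was not called (adjusted p = 0.0616). Both Nrarp probe sets were called in LungMets over NMG, at 0.90 and 1.23. Heyl, a target found in mural cells, was higher in LungMets than in PT by 0.54 (1438886_at, SE 0.09, adjusted p = 0.000535) and 0.39 (1419302_at, adjusted p = 0.00499), and its remaining probe set (1419303_at, 0.18) was not called. Of 8 mural markers 2 were higher and 1 lower in LungMets than in PT, and their part in the Heyl difference was not tested. All 3 Heyl probe sets were higher in LungMets than in NMG, by 0.38 to 0.67. Hes7 was higher by 0.32 in PT (adjusted p = 0.0451) and by 0.47 in LungMets (adjusted p = 0.00648), each over NMG. It was 4.16 to 4.77 in PT and 4.33 to 5.15 in LungMets, against 4.08 to 4.29 in NMG. Below every array median lay Hes7 in PT and NMG, Hey2 in NL and NMG, and Heyl 1419302_at in PT and NMG. Heyl 1419303_at lay there in every tissue. Hey2 averaged 4.68 in PT and 4.52 in LungMets, also below every array median, with highest values of 6.06 and 5.21. No detection calls were used, so these differences rest on low signal.

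Dtx1 and Hes5 each had a probe set that was lower in both tumor groups than in NMG. Dtx1, a ubiquitin ligase that is also prominent in B cells, was 1.44 lower in PT than in NMG by 1425822_a_at (SE 0.25, adjusted p = 4.99e-05) and 1.51 lower in LungMets than in NMG (adjusted p = 5.63e-05). Its other probe set (1458643_at) went the other way, at 0.72 in PT (adjusted p = 0.187) and 1.14 in LungMets (adjusted p = 0.0473), so the direction for Dtx1 is not settled. B cell markers were lower in the tumors, with 4 of 4 measured genes called in both comparisons and a mean of 4.45 to 7.95 in LungMets and 3.61 to 7.96 in PT, against 9.91 to 10.16 in NMG. Their part in the Dtx1 difference was not tested. Hes5 was lower than in NMG by 0.64 in PT and 0.76 in LungMets with 1456010_x_at (adjusted p = 8.09e-05 and 1.87e-05), and by 0.20 (adjusted p = 0.167) and 0.35 (adjusted p = 0.0216) with 1423146_at. By 1456010_x_at it averaged 3.41 in PT, 3.29 in LungMets and 4.05 in NMG, below every array median, so this difference rests on low signal.

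**Figure D4:**
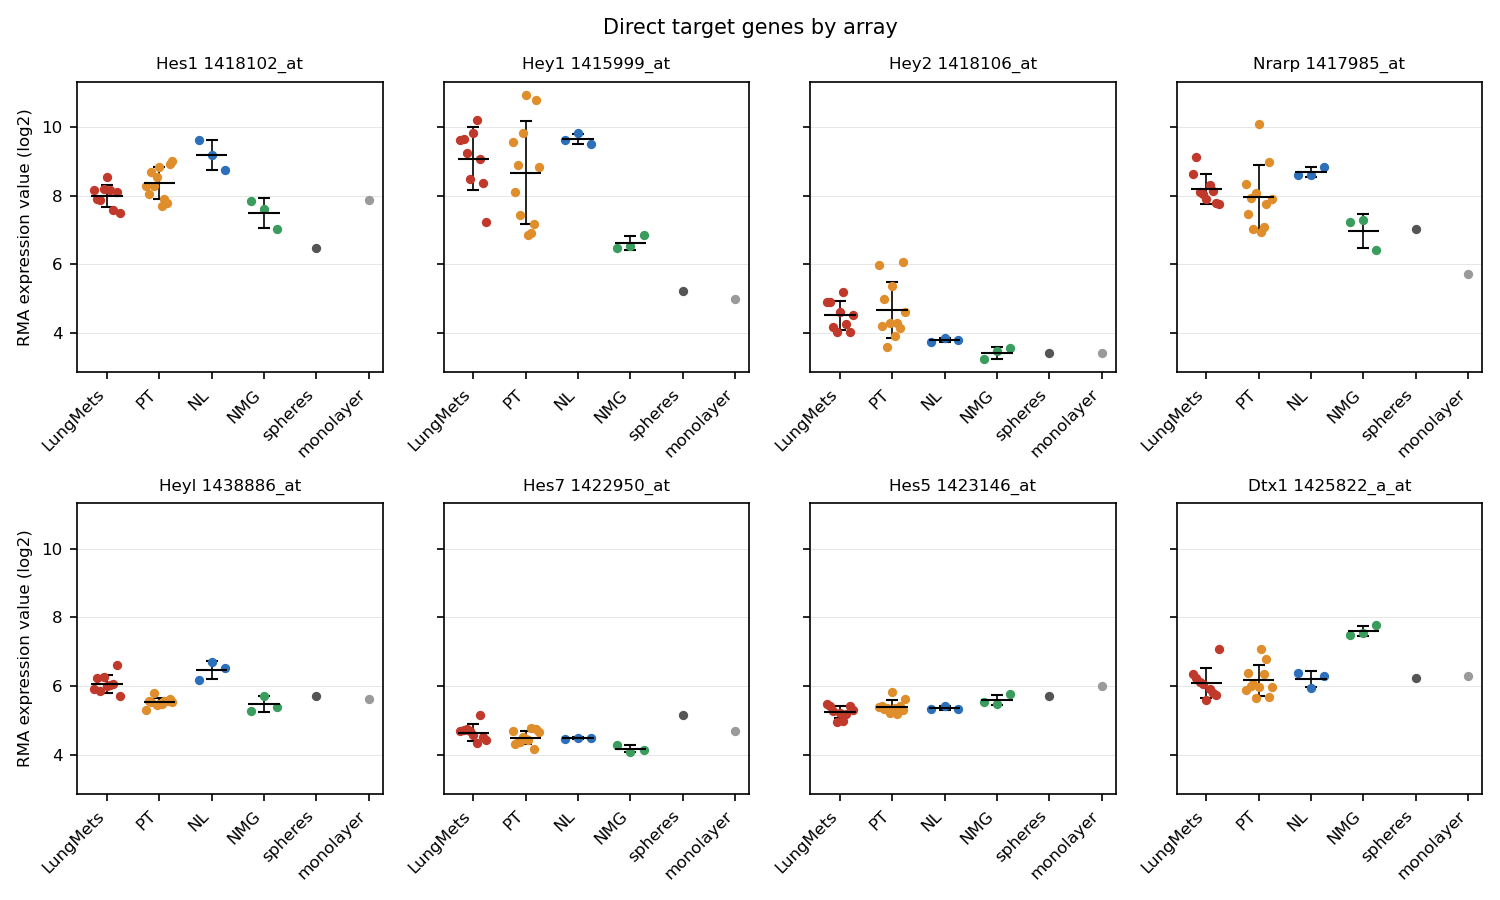
Log2 RMA signal (vertical axis) of the 8 direct target genes on each of the 28 arrays, by group, with 1 probe set per gene; black lines and bars give the mean and SD. Hey1 spreads from 6.86 to 10.95 in PT and lies at 5.22 and 4.98 in spheres and monolayer. Hey2 lies above NMG on all tumor arrays, with tumor group averages below every array median.

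Whether arrays with more Notch4 had more target RNA was asked within PT and within LungMets, which gave 4 relations for Hes1 and Hey1. With Notch4 read by its brightest probe set (1436901_at), Hey1 rose with Notch4 across the 11 PT (Pearson's r = 0.902, Spearman's rho = 0.864, permutation p = 0.000480 and 0.00146, adjusted p = 0.00192 and 0.00584). Without the 2 arrays farthest from the median Notch4 r was 0.863 (exact permutation p = 0.00515, adjusted p = 0.0206). Within the only date with at least 6 PT r was 0.904 over 7 arrays (exact permutation p = 0.0194, adjusted p = 0.0389 over 2 relations). There rho was 0.786 and missed the threshold (exact permutation p = 0.0480, adjusted p = 0.0960). Hes1 gave r = 0.593 and rho = 0.536 across PT (permutation p = 0.0614 and 0.0957, adjusted p = 0.107 and 0.128), which missed the threshold.

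In the 9 LungMets Hey1 gave r = 0.628 and rho = 0.783 (exact permutation p = 0.0805 and 0.0172, adjusted p = 0.107 and 0.0344). Pearson's r passed without LungMets replicate 9 (r = 0.876, exact permutation p = 0.00942, adjusted p = 0.0188). Without the 2 arrays farthest from the median r was 0.811 (exact permutation p = 0.0560, adjusted p = 0.112). Hes1 gave r = 0.352 and rho = 0.250 in LungMets (exact permutation p = 0.342 and 0.521, adjusted p = 0.342 and 0.521). All tests were two-sided. All of these relations rest on a narrow range of 1436901_at, from 13.11 to 13.69 in LungMets and from 13.19 to 13.71 in PT.

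With Notch4 read by 1449146_at, a choice made after the data were seen, r was 0.986 for Hey1 and 0.831 for Hes1 across PT (permutation adjusted p = 8e-05 and 0.00680, the raw value for Hey1 being 2e-05, the smallest that 100000 permutations can give), and 0.757 and 0.525 across LungMets (exact permutation adjusted p = 0.0240 and 0.148). On this probe set 4 PT lay at 8.49 to 8.68 with Hey1 at 6.86 to 7.43, and the other 7 lay at 9.78 to 12.25 with Hey1 at 8.10 to 10.95. Among those 7 PT r was 0.978 for Hey1 and 0.618 for Hes1, given as a description. Of 18193 genes, Hey1 ranked 4 by its correlation with 1449146_at across the 11 PT, behind C1qtnf4, Rad54b and Rap1gap, and Hes1 ranked 1082. Over all 28 arrays Hey1 ranked 70 by 1449146_at and 8892 by 1436901_at. Notch3 (r = 0.967, rank 33) and Notch1 (r = 0.922, rank 288) also ran with 1449146_at in PT, while Notch2 (r = -0.887) and Jag1 (r = -0.861) ran against it. These are descriptions over arrays that differ in cell makeup, as given below.

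Some cell type markers varied with both genes. Across the 11 PT the mean of 10 measured luminal markers had r = 0.946 with Hey1 and 0.784 with Notch4 1436901_at. The mean of 8 mural markers had r = -0.939 and -0.917, and that of 5 macrophage markers -0.906 and -0.839. Others were weaker across PT, at -0.596 and -0.479 for B cells, -0.504 and -0.303 for endothelium, -0.385 and -0.515 for basal cells, 0.112 and 0.263 for lung epithelium and -0.040 and -0.155 for adipocytes. In LungMets the luminal mean had r = 0.799 with Hey1 and 0.921 with Notch4 1436901_at, the mural mean -0.740 and -0.773 and the macrophage mean -0.341 and -0.479. The other means in LungMets had r with Hey1 and Notch4 of -0.803 and -0.202 for B cells and -0.792 and -0.323 for adipocytes. They were 0.682 and -0.056 for lung epithelium, -0.600 and 0.110 for basal cells and 0.219 and -0.542 for endothelium. The luminal mean ranged from 6.19 to 7.34 in LungMets and from 5.69 to 7.97 in PT, against 6.36 to 6.67 in NL and 8.51 to 9.26 in NMG, and was 5.05 in spheres and 4.97 in the monolayer. With Notch4 1449146_at the luminal, mural and macrophage means had r = 0.927, -0.914 and -0.889 across PT. Across LungMets they had r = 0.852, -0.841 and -0.546. The other means had r from -0.611 to 0.139 with 1449146_at across PT and from -0.529 to 0.135 across LungMets. The part of cell makeup in the relation of Notch4 and Hey1 was not tested.

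Across all 28 arrays, with both normal tissues and the cells included, r between Notch4 and Hey1 was 0.146 by 1436901_at and 0.852 by 1449146_at. NL had Hey1 from 9.52 to 9.82 with Notch4 1436901_at at 4.28 to 4.49, and the cells had the opposite combination by this probe set, though not by 1449146_at. For Hes1 the values were -0.110 and 0.571. These are given with no test, since the groups form separate clusters.

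**Figure D5:**
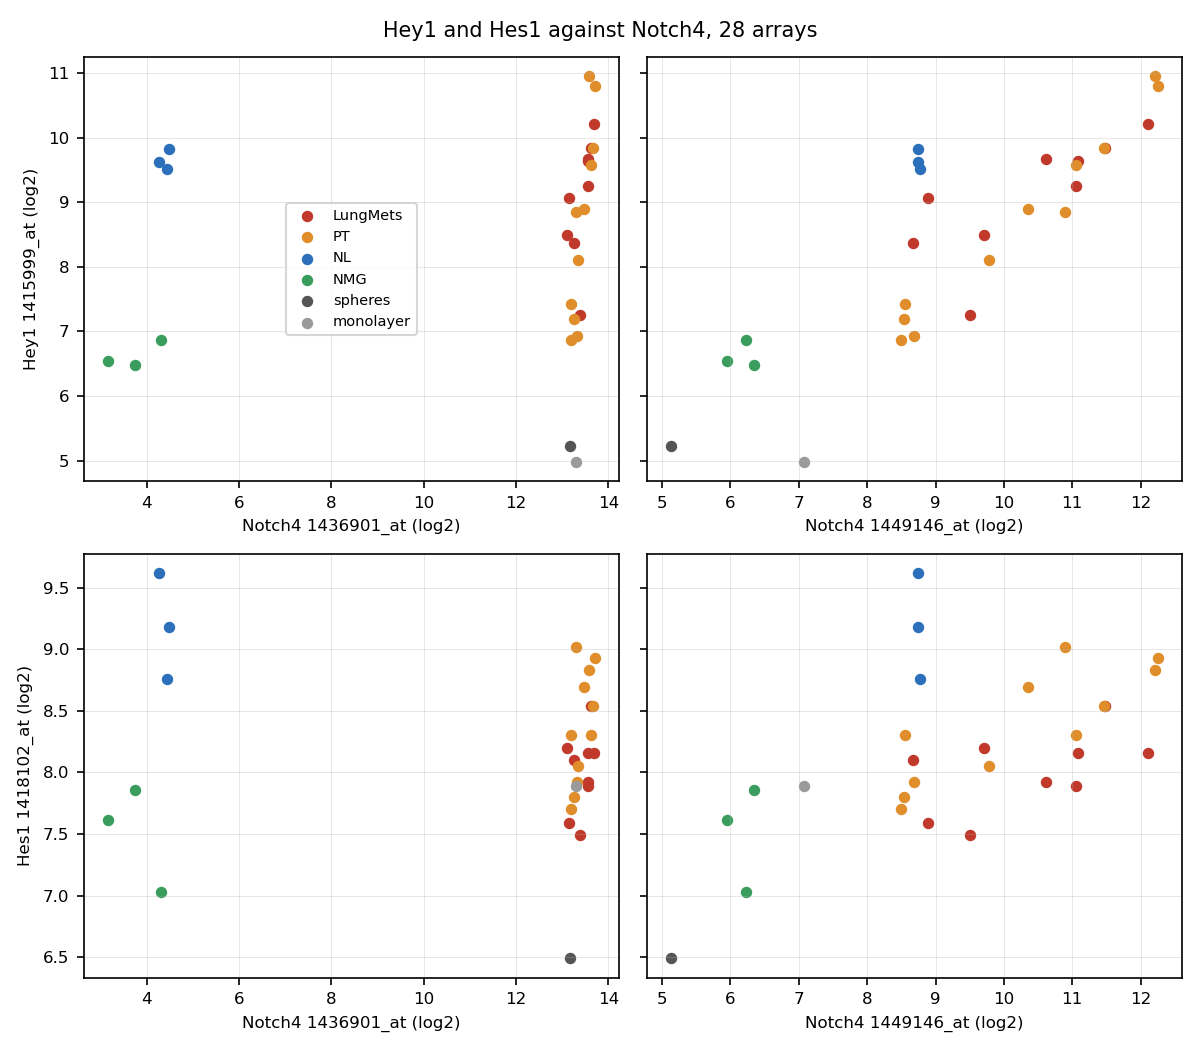
Hey1 (upper row) and Hes1 (lower row) against Notch4 by 1436901_at (left) and 1449146_at (right), log2 RMA signal on both axes, 1 point per array, colored by group. Hey1 climbs with 1449146_at in PT (r = 0.986), while by 1436901_at the 2 cell arrays sit at tumor levels of Notch4 with Hey1 at 5.22 and 4.98.

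The genes whose pattern over the 28 arrays was most like that of 1436901_at were Xaf1 (r = 0.968), Mid1 (r = 0.967), Myef2 (r = 0.957), Dmrta2 (r = 0.954) and Ywhae (r = 0.949). Mid1 averaged 7.35 in LungMets and 7.94 in PT, against 2.65 in NL and 2.64 in NMG, and Xaf1 averaged 8.87 and 8.86, against 4.83 and 4.55. Both were high in spheres and monolayer, at 6.06 and 8.01 for Mid1 and 8.86 and 7.78 for Xaf1. Notch4 lies at chr17:34564286-34588543 of GRCm38.p6, and the next genes on 1 side are Gpsm3, Pbx2 and Ager. Gpsm3 averaged 7.51 in LungMets and 7.62 in PT, against 6.90 in NL and 7.38 in NMG, and Pbx2 averaged 7.90 and 8.17, against 8.03 and 7.79. Ager, an alveolar type 1 cell gene, averaged 11.69 in LungMets and 6.22 in PT, against 14.05 in NL and 6.81 in NMG. The next 3 genes on the other side, Gm31560, Btnl7-ps and Btnl6, had no single-gene probe set among those used here.

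The rest of the pathway was read from lists of genes that process, sugar-modify or traffic the receptor or act with it in the nucleus, of which 38 of 43 were measured. In PT against NMG 10 were higher and 8 lower, with a median of 0.08, against 0.09 over all genes, and in LungMets against NMG 7 were higher and 4 lower. Their share called was close to the 47.7% of all genes in PT and below the 41% in LungMets. In LungMets against NL 9 were higher and 12 lower, against 46.2% of all genes, and in LungMets against PT 2 were higher and 4 lower, against 15.2%.

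Of 8 receptor-processing genes, Psen2, a catalytic subunit of gamma-secretase, was lower than in NMG by 2.15 in PT (SE 0.24, adjusted p = 6.35e-08) and by 1.84 in LungMets (adjusted p = 1.55e-06). Aph1b, another subunit, was lower by 1.43 in PT (adjusted p = 0.000108). Furin, which cleaves the receptor on its way to the membrane, was higher by 0.77 in PT (adjusted p = 0.000164) and 0.59 in LungMets (adjusted p = 0.00369). Of 5 genes of glycosylation 3 were called in PT against NMG, all lower, against 47.7% of all genes called. They were Mfng, a Fringe sugar transferase (-2.44, adjusted p = 4.18e-09), and the transferases Poglut1 (-0.53) and Pofut1 (-0.38). Mfng is also expressed by B cells, whose markers differed as described for Dtx1.

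Among 11 genes of endocytosis and turnover, Mib1, the ubiquitin ligase that ligands need to signal, was 8.48 to 9.68 in LungMets and 9.26 to 9.99 in PT, against 8.00 to 8.42 in NL and 7.85 to 7.97 in NMG. It was higher by 1.65 in PT over NMG (SE 0.18, adjusted p = 3.32e-08) and by 1.30 in LungMets over NMG (adjusted p = 3.05e-06). Fbxw7, which marks the intracellular domain for decay, rose by 0.57 and Dtx3 by 0.55 in PT over NMG, whereas Dtx2 was lower by 1.15. Of 7 activators Kat2a rose by 0.83 and Rbpj by 0.47 in PT over NMG (adjusted p = 0.000737 and 0.00276), and Ep300 was lower by 0.42 (adjusted p = 0.0284). Of 7 corepressors 4 were higher in PT and 0 lower, against 47.7% of all genes called, and they were Ctbp2 (1.20), Kdm5a (0.90), Hdac1 (0.72) and Cir1 (0.44). Of 12 genes that Notch can induce in some cell types, Ptcra was the 1 called in PT against NMG (0.66, adjusted p = 3.68e-06) and in LungMets against NMG (0.59), where 47.7% and 41% of all genes were called. Limma was used throughout, with p-values adjusted over all genes for these lists.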

How the data were processed

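RNA of 28 samples was labelled with biotin and hybridized to Affymetrix arrays. The deposited values are log2 signals per probe set that the authors made with RMA (version not given in the sources used here) in Partek Genomics Suite 6.6, and all 28 columns matched a sample. Of 45101 probe sets, 34958 had 1 gene symbol and were used, 932 had several and 9211 none. The 26 tissue arrays were fitted with limma 3.58.1 in R 4.3.3, with 1 mean per group, on the values as deposited, and Benjamini-Hochberg adjustment ran over all probe sets used. Lists were read from the probe set with the highest mean per gene, adjusted over 18194 genes. The fit was tested on simulated data. Correlations used 100000 permutations for PT and exact pairings for LungMets (Python 3.11.15, scipy 1.17.1). Motifs and positions came from RefSeq tables of GRCm38.p6, and the array annotation names no build.

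All probe sets of the members and all direct targets were named. Of each other list, up to 4 genes called in PT or LungMets against NMG were named, by size of change, as were the 5 genes most like Notch4 over the 28 arrays and the 3 annotated genes on each side of it. The members and lists were chosen with earlier results of these data known. Alternatives changed the probe set per gene, the filter, the normalization, the array weights, the moderation, the call rule, the groups in the fit, the replicate block, the date and the arrays included. The precision of each value is limited by the number of arrays. Array numbers in the labels name no animal.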

Additional observations from a re-analysis of the deposited data

Results flagged for a closer look

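The tumor over host tissue difference, as PT minus NMG less LungMets minus NL, differed between the sites by limma with Benjamini-Hochberg adjustment for 3 members and for 2 other direct targets. The values were 2.05 for Hes1 (adjusted p = 0.000218), 1.74 and 1.19 for the Dll4 probe sets (adjusted p = 0.000190 and 0.00204), 0.93 for Notch1 1418634_at (adjusted p = 0.0157), 0.88 for Heyl 1419302_at (adjusted p = 0.00135) and -1.33 for Dtx1 1425822_a_at (adjusted p = 0.0114). For Hes1, PT lay above NMG in 9 of 11 arrays and LungMets lay below NL in 9 of 9. The difference between NL and NMG, which had separate dates, is part of each of these values.

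Single arrays far from their group were looked for in LungMets, over 30 probe sets. Dtx1 1425822_a_at was highest on LungMets replicate 9, at 7.07, and Hes7 was highest on LungMets replicate 7, at 5.15, each farther from the next array than the 95% critical value allows. Chance alone marks about 1 in 20 such groups.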

How the results depend on the processing

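Counts are of the 9 member genes other than Notch4 with at least 1 call, which were 4 for PT against NMG, 1 for LungMets against PT, 6 for LungMets against NL, 2 for LungMets against NMG and 3 for the difference between the sites. In the same order 57.5%, 21.1%, 55.6%, 51.1% and 24.1% of all genes had at least 1 call. The shares below are of probe sets, which is not the same measure as these gene counts. With array weights they were 8 for PT against NMG, 2 for LungMets against PT, 6 for LungMets against NMG and 5 for the sites, while the share of all probe sets called was 58.2%, 21.1%, 53.2% and 30%, against 46.1%, 14.4%, 39% and 17.3% without weights. With a fold over 2 also required they were 2 for PT against NMG, 0 for LungMets against PT (Dll4 differed by less than that fold in limma), 3 for LungMets against NL and 1 for LungMets against NMG, with 15.9%, 2.37%, 15% and 12.1% of all probe sets called. Leaving out PT replicate 5, LungMets replicate 9 or 1 of the NMG or NL arrays gave 2 to 5 for PT against NMG, 1 to 2 for LungMets against PT, 5 to 7 for LungMets against NL, 1 to 4 for LungMets against NMG and 2 to 3 for the sites, and the other PT and LungMets arrays were not left out singly. In the same order 36.1% to 46.9%, 16.5% to 17%, 35.6% to 44.5%, 28% to 39.5% and 13.4% to 14.6% of all probe sets were called. Without both PT replicate 5 and LungMets replicate 9 the gene counts were 2 for LungMets against PT and 4 for LungMets against NMG, with 19.4% and 40.1% of all probe sets called. Within either date LungMets against PT gave 0 by limma and, in a fit chosen after seeing the data, by ordinary least squares. By limma 2 of 16 member probe sets had an unadjusted p under 0.05 in the date of 4 LungMets and 4 PT, against 21.6% of all, and 3 of 16 in the date of 5 LungMets and 7 PT, against 14.3%. In these dates 2246 and 0 of 34958 probe sets were called.

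Replicate numbers in the labels did not pair the samples. Over 9 numbers shared by PT and LungMets the correlation of deviations ran from -0.18 to 0.44, over 0.1 in 7, and 0 arrays correlated best with their own number. With the replicate block the counts were 6 for PT against NMG, 2 for LungMets against PT, 8 for LungMets against NL, 4 for LungMets against NMG and 5 for the sites, with 44.9%, 14.3%, 46.5%, 40.9% and 21.1% of all probe sets called.

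For Notch4 against Hes1 in PT, r was 0.802 with the mean of the Notch4 probe sets. In settings chosen after seeing the data it was 0.831 with 1449146_at, 0.754 with the 2 farthest arrays also left out, 0.837 without PT replicate 5, 0.921 within the date of 7 PT, and 0.758 with 1456263_at, all past the permutation threshold. For Notch4 against Hey1 in LungMets r passed at 0.876 without LungMets replicate 9 and at 0.692 with the mean of probe sets. It missed the threshold with 1456263_at, at 0.587 (adjusted exact permutation p = 0.114). It passed with 1449146_at at 0.757, at 0.903 without the 2 farthest arrays and at 0.875 without LungMets replicate 9. Leaving out the array that stood apart gave 0.599 for Hes1 and 0.902 for Hey1 in PT, and 0.391 for Hes1 in LungMets.

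Differences that changed sign were small or within their spread, and none was called. In PT against NMG these were Notch1 1418634_at (-0.031 after a further quantile normalization, -0.084 with array weights, -0.019 without both arrays, -0.10 to 0.12 with 1 of the arrays named above left out), Jag1 1421106_at (0.026 after quantile normalization, 0.013 with arrays centred, 0.076 with array weights, -0.11 to 0.012 with 1 array left out) and Jag2 1426430_at (-0.022 with array weights, -0.012 to 0.065 with 1 array left out). In LungMets against NMG they were Notch2 1451889_at (-0.047 after quantile normalization, -0.038 to 0.090 with 1 array left out) and Notch3 1421964_at (0.037 with the replicate block). In LungMets against PT they were Notch1 1418633_at (-0.021 centred, -0.0048 in the date of 4 PT), Notch2 1455556_at (-0.21 with array weights, -0.065 without both arrays, -0.19 in the date of 4 PT, -0.028 to 0.065 with PT replicate 5 or LungMets replicate 9 left out), Jag1 1434070_at (-0.12 with array weights, -0.00060 with the replicate block, -0.21 in the date of 4 PT) and Jag2 1426431_at (-0.10 in that date). Notch2 1451889_at gave 0.025 in the date of 7 PT. Notch4, given without a test, changed sign at 1436901_at (-0.042 centred, -0.0089 in the date of 7 PT) and 1449146_at (-0.23 in that date). The cause was not tested.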
